A study of Homo sapiens with 4 samples.

Results

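Interferon-stimulated genes were described on 4 arrays of HCT116 cells, a widely used line from a human colorectal cancer. The set holds 50 genes, chosen by name as genes that interferons are known to switch on, and a member was measured by the probe sets whose single annotated symbol is that of the gene. A total of 49 members had at least 1 such probe set, with 102 probe sets in all, out of 41091 probe sets with 1 symbol for 19775 genes. TDRD7 had none and was not analysed here. The conditions compared were spheroids, which are rounded multicellular aggregates, and monolayers, which grow on a flat surface. Each condition held 1 array of HCT116 wt cells and 1 array of HCT116 wt/GFP cells, whose name refers to green fluorescent protein, and the labels state neither how many cultures lay behind an array nor whether a line is 1 clone. No interferon or other agent is named for either condition, and no array is a replicate culture of another, so precision is limited by having 4 arrays in all. In pairs of signals from 1 condition, the wt array stands before the wt/GFP array.

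Interferons are secreted proteins that bind receptors on the cell surface. The receptors activate JAK kinases, these phosphorylate STAT proteins, and the STAT proteins join IRF9 to form a complex that binds interferon-stimulated response elements in the promoters of its target genes. The targets encode sensors of viral RNA, enzymes and proteins that block viral replication, and a ubiquitin-like modifier, ISG15, with its conjugation enzymes. Cells of the gut lining express many of them at a low level without infection.

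In spheroids 20 members rose and 1 fell relative to monolayers, while 19 did not pass the test and the other 9 members on the array were too dim to be tested. A background of 30.7% of all genes tested was called higher and 18.6% lower, so that the 20 of 40 tested members called higher, or 50%, stood beside a high rate. IFIT2 and IFI6 rose by 5.19-fold and 5.06-fold. BST2, a membrane protein that tethers budding viruses, had a fitted rise of 12.1-fold that rests on dim monolayer signals and depends on the pseudocount. A rise of at least 2-fold was met by 15 of the tested members, or 37.5%, against 14.8% of all genes tested, and a fall of that size by 0 members against 5.04% of all genes. NMI, a protein that interacts with MYC and STAT proteins, was the member that fell. The median log2 change over all 49 members, tested or not, was 0.52, against 0.21 over all 19775 named genes, with medians of 0.63 within wt/GFP and 0.65 within wt.

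These values are MAS5 signals, the summary of a probe set's brightness on a linear scale. Changes are differences of log2(signal + 14.0), averaged over the 2 lines, and understate the change of dim genes. The test was limma, with culture condition and cell line as terms, on 14337 genes above a mean signal of 30.6, each represented by its brightest probe set. A gene was called at an adjusted p under 0.05 over all genes tested. The error after ± is the standard error of limma from 2 arrays per condition, which with 1 residual degree of freedom leans on genes of like brightness. In these bulk RNA samples, more cells that express a gene and more of its RNA per cell cannot be told apart.

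Several properties of the arrays moved with the culture condition. Over all probe sets, the signal had a median of 67.3 and 68.4 in spheroids against 48.0 and 48.8 in monolayers, although every array was scaled to a trimmed mean of 500.1. The ratio of the 3' to the 5' probe set of ACTB, a measure of RNA integrity, was 1.76 and 1.73 in spheroids against 1.32 and 1.30 in monolayers, and its part in the results was not tested. The same ratio for GAPDH was 0.868 and 0.951 in spheroids against 0.897 and 0.882 in monolayers, so these groups overlapped. Scaling the arrays to the hybridisation controls, which are foreign transcripts added to each sample, lowered the change of every gene by a log2 value of -0.59. The median change of the members became -0.074 with that scaling, beside -0.39 for all named genes, a gap of 0.31 that is the same by construction under any such shift.

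Promoters of several members that rose hold the response element core. They are shown for the 6 called members with the largest change that hold the core GAAANNGAAA, or its reverse complement TTTCNNTTTC, before the transcription start. The promoter of ISG15, which did not pass the test, stands beside them and was chosen after its values were seen. Each line gives the 250 bases before the start, 5' to 3' on the strand of the gene, from RefSeq on GRCh38.p14, and capitals mark the cores.
BST2, chr19:17405631-17405880, minus strand: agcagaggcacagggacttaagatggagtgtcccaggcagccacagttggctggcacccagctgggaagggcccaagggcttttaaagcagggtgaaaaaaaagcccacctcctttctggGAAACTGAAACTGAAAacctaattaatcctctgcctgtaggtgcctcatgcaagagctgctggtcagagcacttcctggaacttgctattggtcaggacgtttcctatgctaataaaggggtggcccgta
IFI6, chr1:27672193-27672442, minus strand: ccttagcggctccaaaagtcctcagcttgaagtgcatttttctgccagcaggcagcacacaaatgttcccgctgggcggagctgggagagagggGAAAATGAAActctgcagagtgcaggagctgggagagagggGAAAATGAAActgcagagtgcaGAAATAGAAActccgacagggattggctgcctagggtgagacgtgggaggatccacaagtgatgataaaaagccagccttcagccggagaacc
IFIH1, chr2:162318685-162318934, minus strand: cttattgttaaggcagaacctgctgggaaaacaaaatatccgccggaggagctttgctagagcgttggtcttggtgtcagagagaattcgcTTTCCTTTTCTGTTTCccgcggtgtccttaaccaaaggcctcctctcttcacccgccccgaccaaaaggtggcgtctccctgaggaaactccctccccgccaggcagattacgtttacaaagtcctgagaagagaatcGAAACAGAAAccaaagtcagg
IFI27, chr14:94110486-94110735, plus strand: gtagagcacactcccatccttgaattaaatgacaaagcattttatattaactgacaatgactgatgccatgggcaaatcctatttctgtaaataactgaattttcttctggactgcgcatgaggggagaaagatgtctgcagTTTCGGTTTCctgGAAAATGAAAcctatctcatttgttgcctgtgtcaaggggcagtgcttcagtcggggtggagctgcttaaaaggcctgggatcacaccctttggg
IFIT1, chr10:89392373-89392622, plus strand: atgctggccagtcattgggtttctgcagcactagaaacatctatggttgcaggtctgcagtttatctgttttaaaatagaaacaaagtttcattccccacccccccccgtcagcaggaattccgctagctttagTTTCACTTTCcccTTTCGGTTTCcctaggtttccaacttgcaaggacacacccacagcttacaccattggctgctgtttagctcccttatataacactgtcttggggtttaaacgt
IFIT3, chr10:89327747-89327996, plus strand: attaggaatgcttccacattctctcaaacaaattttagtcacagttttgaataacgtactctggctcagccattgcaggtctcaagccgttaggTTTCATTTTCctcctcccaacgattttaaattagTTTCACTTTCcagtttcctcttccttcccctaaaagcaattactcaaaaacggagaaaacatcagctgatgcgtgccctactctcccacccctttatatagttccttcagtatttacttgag
ISG15, chr1:1013247-1013496, plus strand: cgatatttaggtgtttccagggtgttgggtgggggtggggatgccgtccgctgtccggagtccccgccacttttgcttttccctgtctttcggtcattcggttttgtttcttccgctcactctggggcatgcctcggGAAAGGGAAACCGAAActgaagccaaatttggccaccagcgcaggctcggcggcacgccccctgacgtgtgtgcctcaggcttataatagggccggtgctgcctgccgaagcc

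IFIT2 and GBP2 had no entry in the table, and PARP9 and OAS1 had one with no core before the start. BST2 and ISG15 each hold 2 cores that overlap, so that they read as 1 run of capitals, at positions -130 to -115 and -113 to -98, where 1 is the first transcribed base. BST2 rose and ISG15 did not pass the test, a difference between them that was not tested. IFIH1 and HERC5 also hold overlapping cores. In IFIT1 the 2 cores lie at positions -116 to -107 and -103 to -94, and in IFI6 there are 3. Among members, 39 of 50 had an entry in the RefSeq promoter table. Within 300 bases, 250 before the start and 50 after it, 26 of these 39 held the response element core on either strand, or 66.7%, compared with 3.65% of all 27305 promoters of that length and 2.69% of those of 11496 genes tested. The core was found in 12 of 17 members called higher and in 8 of 14 tested members that were not called, a difference that was not tested. It was also found in the promoter of NMI, which fell. The core of the gamma-activated site, TTCNNNGAA, which reads the same on both strands, was found in 9 of the 39 promoters, or 23.1%, against 7.88% of all promoters. In BST2, IFI27 and EPSTI1 it overlaps a response element core. A match of letters is a description of the window and not evidence of binding.

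**Figure D1:**
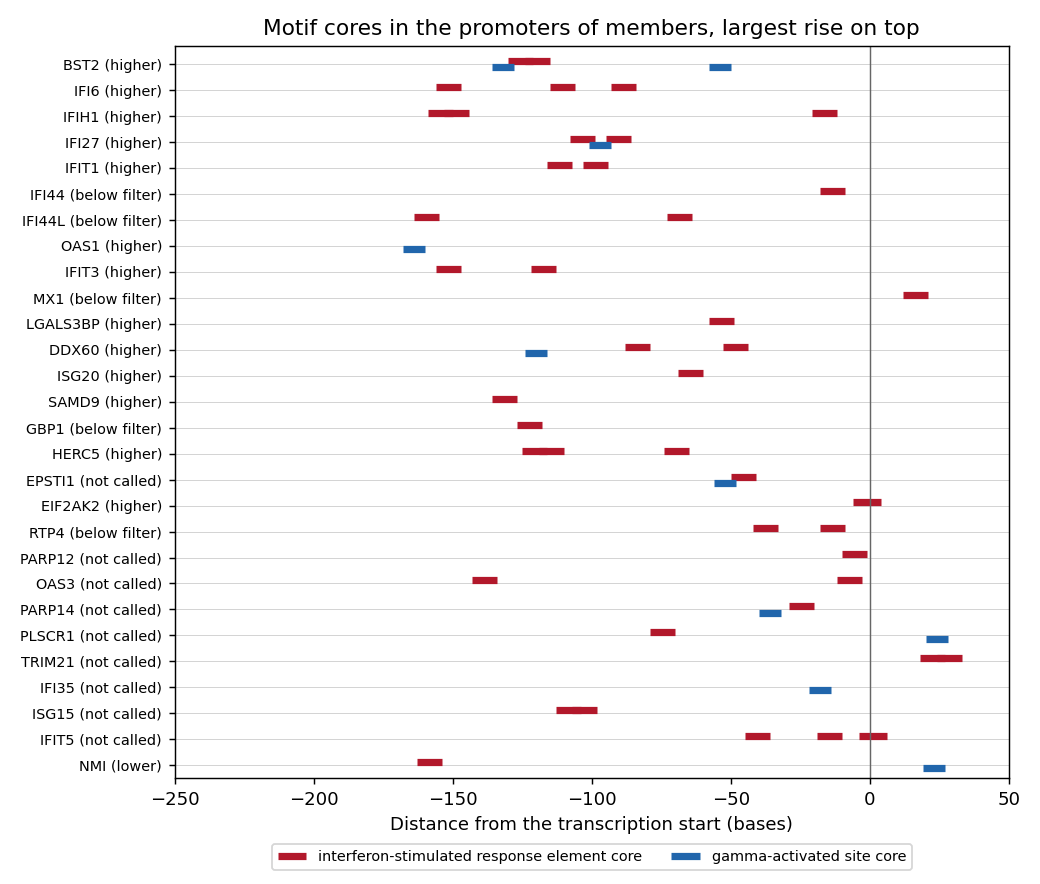
Positions of the response element core (red) and the gamma-activated site core (blue) relative to the transcription start, in bases, for members with at least 1 match. Members run from the largest rise at the top to NMI at the bottom, with the call in brackets, and cores are present among higher, uncalled and below-filter members alike, with 12 of 17 higher and 8 of 14 uncalled members holding the response element core.

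Among the sensors of viral RNA, 3 of 4 members rose and DHX58, a regulator of the other sensors, was too dim to be tested. IFIH1, which encodes the sensor of long double-stranded RNA known as MDA5, had signals of 536 and 520 in spheroids against 87.6 and 139 in monolayers. Both spheroid arrays lay well above both monolayer arrays, and the log2 change was 2.12 ± 0.25 (adjusted p = 3.23e-08). RIGI, the sensor of RNA ends, gave 767 and 816 in spheroids against 332 and 340 in monolayers, a change of 1.20 ± 0.17 (adjusted p = 1.36e-06). Its other 2 probe sets also rose, one of them by 1.63. The second probe set of IFIH1 above the filter had a value of 0.29 and did not pass (adjusted p = 0.742 over probe sets), and with the mean of its probe sets the change of IFIH1 was 1.20 (adjusted p = 0.0176). DDX60, a helicase that aids these sensors, had 508 and 397 in spheroids and 197 and 212 in monolayers, a change of 1.08 ± 0.22 (adjusted p = 0.000155). DHX58 stayed between 4.19 and 7.49 on all arrays.

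The oligoadenylate synthetases, which make a messenger that activates RNA decay, and the kinase PKR did not move as a block, as 3 of these 5 members rose. OASL, a relative of the synthetases that acts on RIG-I signalling, had 401 and 296 in spheroids against 128 and 144 in monolayers (change 1.25 ± 0.26, adjusted p = 0.000172). OAS1 had 70.1 and 113 in spheroids against 13.9 and 45.8 in monolayers, a change of 1.34 ± 0.51 that passed narrowly (adjusted p = 0.0291). Its second probe set above the filter gave a like value of 1.49, with 83.8 and 56.7 in spheroids against 18.9 and 12.5 in monolayers. That probe set thus entered the test through its spheroid arrays. OAS3 showed 403 and 459 in spheroids against 384 and 368 in monolayers and did not pass (0.19 ± 0.19, adjusted p = 0.447). The second probe set of OAS3 above the filter had -0.74 and did not pass either (adjusted p = 0.0925 over probe sets). With the mean of its probe sets the change of OAS3 was -0.28. OAS2 was also not called, with 42.5 and 14.5 in spheroids against 51.7 and 47.1 in monolayers, and its 2 probe sets above the filter had opposite values of -0.66 and 0.65. EIF2AK2, which encodes PKR, the kinase that halts translation when it meets double-stranded RNA, had 2336 and 1816 in spheroids against 1480 and 1570 in monolayers. This was a change of 0.43 ± 0.13 (adjusted p = 0.00709), but it was -0.16 after scaling to the hybridisation controls, and another of its 3 probe sets fell by 0.54 and was itself called.

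Of the IFIT family, proteins with tetratricopeptide repeats that bind viral RNA, 3 of 4 rose. IFIT2 had 311 and 320 in spheroids against 22.9 and 94.8 in monolayers. The wt monolayer array was thus below the filter level, and the change of 2.38 ± 0.35 (adjusted p = 2.01e-06) was 2.76 without a pseudocount. IFIT1, which recognises viral messenger RNA caps, had 767 and 743 in spheroids against 174 and 216 in monolayers (1.89 ± 0.20, adjusted p = 5.32e-09). IFIT3, a partner that stabilises IFIT1, had 498 and 490 in spheroids against 177 and 212 in monolayers (1.29 ± 0.22, adjusted p = 1.20e-05). The second probe sets of IFIT2 and IFIT3 had values of 1.09 and 0.56 and did not pass (adjusted p = 0.0542 and 0.0934 over probe sets), and with the mean of probe sets the change of IFIT2 was 1.74. In all 3 of these genes the spheroid arrays of the lines were close to each other and the monolayer arrays were lower. IFIT5 was the member of the family that did not pass, with 1105 and 1284 in spheroids against 1359 and 1476 in monolayers. Its change was -0.25 ± 0.13 (adjusted p = 0.123), while its second probe set was called higher, at 0.68. The first was called lower with median-centred arrays (-0.64) and with the hybridisation controls as the scale (-0.84).

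BST2 and its fellow membrane-associated members differed most among themselves. The BST2 signal was 218 and 263 in spheroids against 4.07 and 10.3 in monolayers. BST2 was the tested member that lay above a signal of 30.6 on both spheroid arrays and on neither monolayer array, so it entered the test through the spheroid arrays alone. Its log2 change was 3.60 ± 0.47 (adjusted p = 2.63e-07) and 5.21 without a pseudocount, and 2.20 with the median signal as pseudocount, so the size depends on how the dim monolayer signals are treated. PLSCR1, a phospholipid scramblase, did not pass, with 3940 and 3113 in spheroids against 3392 and 3201 in monolayers. Its second probe set above the filter was called higher, at 0.49, but changed by -0.11 in wt/GFP and 1.10 in wt. The groups of that probe set overlapped, with 1547 and 1038 in spheroids against 714 and 1122 in monolayers. RTP4, a chaperone of receptors, was below the filter on every array.

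Among the 4 GTPases, 1 could be tested. GBP2, a guanylate-binding protein that attacks the membranes around intracellular pathogens, had 313 and 201 in spheroids against 51.3 and 43.0 in monolayers, a change of 2.12 ± 0.35 (adjusted p = 8.69e-06). The neighbouring GBP1 ranged from 0.738 to 33.5 and the groups overlapped. MX1, which blocks influenza and other viruses, had 60.9 and 13.5 in spheroids against 6.14 and 3.55 in monolayers. All but the wt spheroid array were below the level of 30.6, and MX1 was therefore not tested. MX2 had 29.1 and 11.3 in spheroids against 72.5 and 11.8 in monolayers, with overlapping groups.

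Among the other antiviral effectors, 2 of 5 rose. ISG20, an exonuclease that degrades viral RNA, had 318 and 306 in spheroids against 183 and 167 in monolayers (0.78 ± 0.24, adjusted p = 0.00860). SAMD9, a restriction factor of poxviruses, had 429 and 416 in spheroids against 308 and 215 in monolayers (0.68 ± 0.21, adjusted p = 0.00870). CMPK2, a mitochondrial nucleotide kinase, did not pass although its groups did not overlap, with 236 and 221 in spheroids against 144 and 138 in monolayers (0.64 ± 0.28, adjusted p = 0.0544). It has 1 probe set, and it was called under 4 alternatives, 3 of which left its value as it was and refitted the other genes. SAMD9L, a relative of SAMD9, had 14.7 and 94.1 in spheroids against 72.7 and 47.2 in monolayers and moved opposite ways in the lines. RSAD2, also known as viperin, an enzyme that makes a chain-terminating nucleotide, had 22.2 and 52.8 in spheroids against 2.81 and 22.9 in monolayers, too dim to be tested.

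The ISG15 pathway attaches the ubiquitin-like protein ISG15 to newly made proteins. ISG15 itself did not pass, with 5280 and 4733 in spheroids against 4597 and 6380 in monolayers, so its groups overlapped and its change was -0.12 ± 0.13 (adjusted p = 0.487). It was called lower once arrays were median-centred, at -0.51, or set to the hybridisation controls, at -0.71, whereas its value after quantile normalization was 0.038. UBE2L6, the conjugating enzyme, had 1312 and 885 in spheroids against 571 and 459 in monolayers, and rose by 1.05 ± 0.15 (adjusted p = 1.71e-06). HERC5, the main ligase, had 1010 and 877 in spheroids against 781 and 560 in monolayers, a change of 0.50 ± 0.15 (adjusted p = 0.00732) that became -0.092 after scaling to the hybridisation controls. The related HERC6 and the protease USP18, which removes ISG15, did not pass, with changes of -0.059 ± 0.23 and 0.37 ± 0.27 (adjusted p = 0.856 and 0.270).

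PARP9, which modifies proteins with ADP-ribose together with the ubiquitin ligase DTX3L, had 783 and 687 in spheroids against 205 and 225 in monolayers. Its change was 1.71 ± 0.20 (adjusted p = 2.43e-08). Its relatives PARP12, at 0.19 ± 0.15 (adjusted p = 0.324), and PARP14, at 0.11 ± 0.34 (adjusted p = 0.807), did not pass. The second probe set of PARP9 was called higher at 0.93, and that of PARP14 had 0.69 and did not pass (adjusted p = 0.00538 and 0.325 over probe sets). Of the 6 proteins of nuclear bodies and the TRIM family, 1 rose and 1 fell. SP100, a component of nuclear bodies, had 1457 and 1613 in spheroids against 1228 and 1218 in monolayers, a change of 0.32 ± 0.13 (adjusted p = 0.0420) that was -0.069 with median-centred arrays and -0.27 with the hybridisation controls as the scale. NMI had 939 and 779 in spheroids against 1314 and 1635 in monolayers. Both spheroid arrays were below both monolayer arrays, and NMI fell by 0.77 ± 0.15 (adjusted p = 7.16e-05). PML, the organiser of these bodies, had 137 and 143 in spheroids against 74.7 and 117 in monolayers and did not pass (0.52 ± 0.35, adjusted p = 0.226). Of its 7 probe sets above the filter, 1 was called higher, at 1.66, and 2 had negative values, -0.60 and -0.47, that did not pass. The one called higher had 132 and 59.2 in spheroids against 39.4 and 6.03 in monolayers. It averaged below the filter level in monolayers and entered the test through its spheroid arrays. SP110 had a change of 0.055 ± 0.17, while 1 of its 5 probe sets was called higher, at 1.07. TRIM21, an antibody receptor of the cytosol, and TRIM22, a ubiquitin ligase, did not pass either, with changes of -0.018 ± 0.26 and 0.49 ± 0.56.

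IFI6, a mitochondrial and endoplasmic reticulum protein that blocks flaviviruses, had 3026 and 3743 in spheroids against 627 and 683 in monolayers. Its change of 2.34 ± 0.13 had the lowest adjusted p of the members, 1.67e-14. IFI27 had 93.9 and 165 in spheroids against 48.7 and 6.69 in monolayers. The spheroid arrays were again higher, but the change was 3.11 in wt/GFP and 0.78 in wt, and the mean of 1.95 ± 0.53 passed with adjusted p = 0.00288. It did not pass in a limma fit without the trend on brightness (adjusted p = 0.112). Like OAS1, IFI27 averaged below the filter level in monolayers and entered the test through its spheroid arrays. IFI44 had 31.0 and 54.9 in spheroids against 5.41 and 2.82 in monolayers, and IFI44L had 37.5 and 22.3 in spheroids against 2.97 and 1.35 in monolayers. Both of these were higher in each line yet lay below the filter on average, so they were tested without the filter alone, where both were called higher, with changes of 1.62 and 1.42 (adjusted p = 0.0277 and 0.0328). IFI35, a partner of NMI, did not pass, with overlapping signals between 237 and 336.

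LGALS3BP, a secreted glycoprotein that binds galectins, had 5565 and 6439 in spheroids against 2200 and 2804 in monolayers and rose by 1.26 ± 0.12 (adjusted p = 3.78e-10). The last of the members did not pass or were not tested. EPSTI1 had 41.8 and 52.4 in spheroids against 14.7 and 53.3 in monolayers. A dimmer probe set of EPSTI1, below the filter and not tested, had 45.0 and 23.7 in spheroids against 12.4 and 0.839 in monolayers. XAF1, an antagonist of apoptosis inhibitors, had 44.6 and 80.8 in spheroids against 59.0 and 50.6 in monolayers, so that these groups overlapped. APOL6 also overlapped, with 115 and 48.7 in spheroids against 99.9 and 17.6 in monolayers. Another probe set of APOL6, below the filter and not tested, had 72.8 and 49.0 in spheroids against 8.66 and 5.15 in monolayers. APOL1, an apolipoprotein that kills trypanosomes, lay between 9.56 and 20.7 on all arrays.

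**Figure D2:**
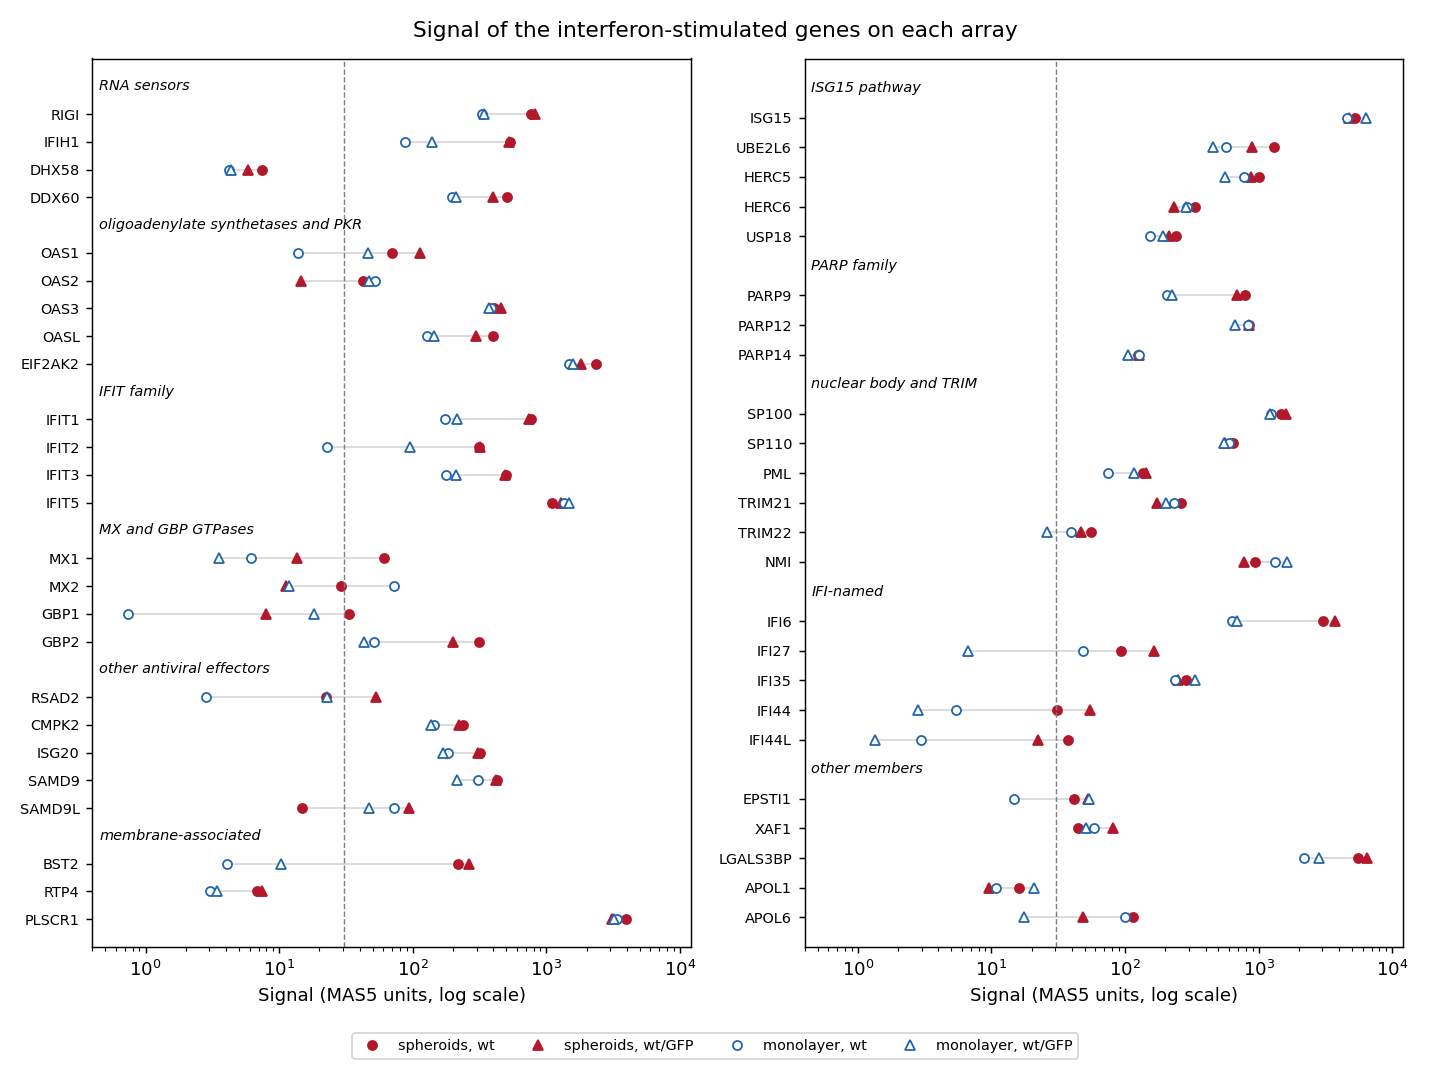
Signal of each of the 49 measured members on the 4 arrays, on a log axis in MAS5 units, grouped by role, with spheroids filled and monolayers open, wt as circles and wt/GFP as triangles. The dashed line is the signal of 30.6; BST2 lies right of it in spheroids and left of it in monolayers, whereas ISG15 lies far right of it in both, and levels of different genes are not comparable because each has its own probes.

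Of the 49 members, 40 were above a signal of 30.6 on average over the arrays, or 81.6%, compared with 72.5% of all named genes. The other 9 were DHX58, RTP4, APOL1, MX1, MX2, GBP1, RSAD2, IFI44 and IFI44L. The average was taken on the log2 scale. Turned back into signals, the members nearest the level were MX2 and RSAD2 below it, at 25.5 and 21.0, and OAS2 and EPSTI1 above it, at 36.4 and 37.7. On single arrays 43 members in wt spheroids and 41 in wt/GFP spheroids were above it, against 37 in wt monolayers and 36 in wt/GFP monolayers. A total of 31 members were above it on all 4 arrays, 3 on none (DHX58, RTP4 and APOL1), and 2 on the spheroid arrays alone (BST2 and IFI44). Without the filter, when all 19775 genes were tested, 20 members were called higher and 1 lower, against 19% and 12% of all genes. They were not all the same members, as IFI44 (adjusted p = 0.0277) and IFI44L (adjusted p = 0.0328) were called higher and OAS1 (adjusted p = 0.0657) and SP100 (adjusted p = 0.0632) were not.

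All 20 members that rose were higher in both wt/GFP and wt, which the choice of members by the mean of both lines favours, and 11 of them by at least 2-fold in each line. The sizes were not always alike, as IFIT2 changed by 1.62 in wt/GFP and 3.14 in wt. The median absolute difference between the lines' changes was 0.41 for members and 0.34 for all named genes. Over all 49 members, both spheroid arrays lay above both monolayer arrays for 31, or 63.3%, against 42% of all named genes, and below them for 3, against 22.2%. The 3 were NMI, IFIT5 and OAS2. The changes had the same sign in both lines for 38 members, or all but 11, and for 73.5% of all named genes. Between the lines themselves, wt/GFP against wt, 0 of 40 tested members were called by limma, against 0.0349% of all genes, and 5 members had an unadjusted p under 0.05, beside 6.56% of all genes.

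**Figure D3:**
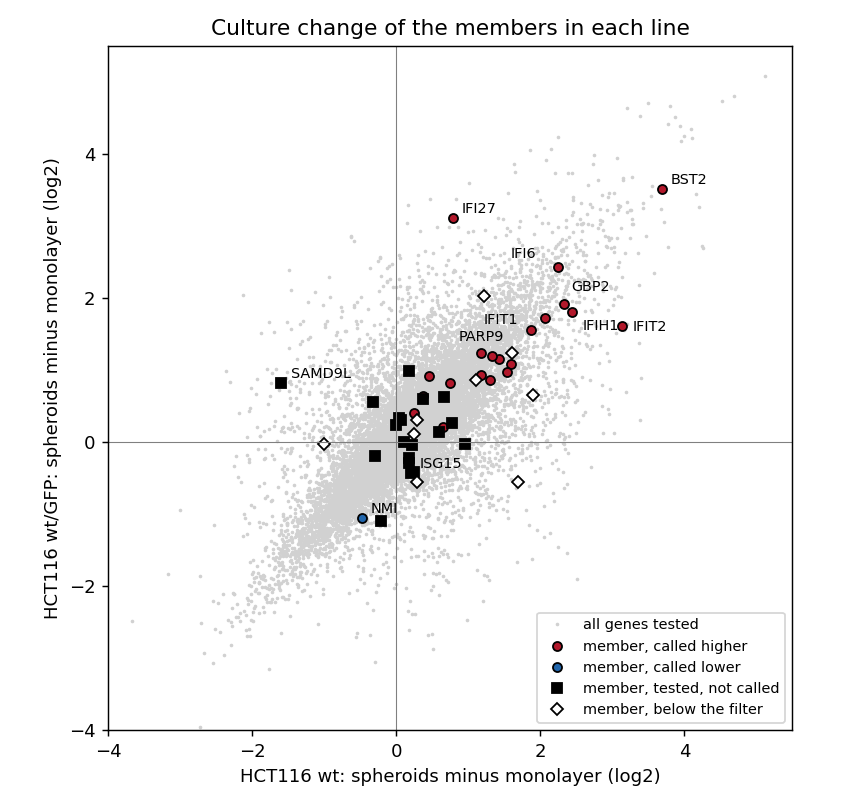
Log2 change from monolayer to spheroids in wt (x axis) and wt/GFP (y axis) for the members, coloured by call, over all 14337 genes tested in grey. The 20 members called higher lie in the upper right, NMI lies at the lower left, and IFI27 and SAMD9L stand away from the diagonal.

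The scaling of the arrays set how many members were called. With the deposited scaling 20 rose and 1 fell, after quantile normalization 15 rose and 1 fell, with median-centred arrays 14 rose and 4 fell, and with the hybridisation controls as the scale 8 rose and 3 fell. Of all genes tested, 30.7%, 23.6%, 16.4% and 7.49% were called higher under these scalings, and 18.6%, 21%, 32.4% and 28.2% were called lower. The median change of all named genes was 0.21, 0.0073, -0.19 and -0.39 under these scalings. The 8 members called higher under all 4 scalings were BST2, IFIT2, IFI6, GBP2, IFIH1, IFI27, IFIT1 and PARP9, which is 8 of 40, beside 7.49% of all genes tested. Of these, BST2 and IFI27 averaged below the filter level in monolayers and entered the test through their spheroid arrays. The filter was the same under each scaling. NMI was called lower under all 4, as were 17.2% of all genes.

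**Figure D4:**
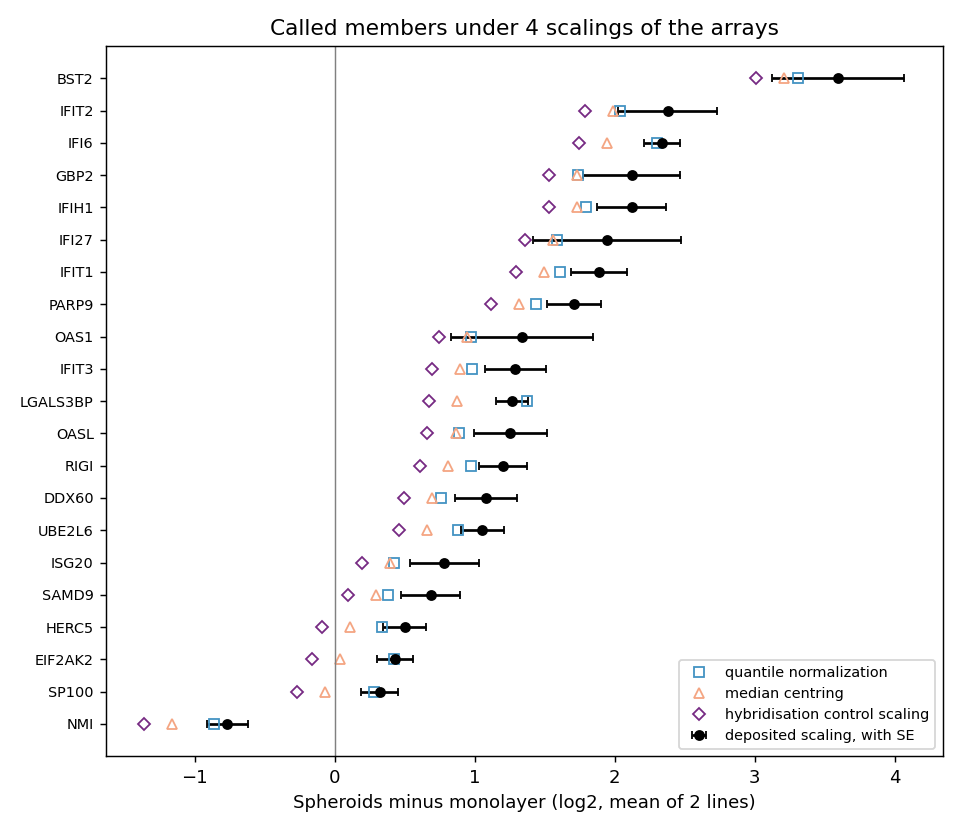
Log2 change of spheroids over monolayers for the 21 called members with the deposited scaling (filled circles, bars are the standard error) and under 3 other scalings (open symbols). EIF2AK2, HERC5 and SP100 cross zero under at least 1 scaling, while the top 8 members stay above 1.

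Leaving out 1 array at a time left 1 array in a condition, and these fits had culture condition as their only term. The part of the omitted array in a lost call thus cannot be told apart from that of the dropped line term. Several members lost their call and IFIT5 gained one, in some cases with little change in the value. OAS1 lost its call without the wt spheroid array (1.64, adjusted p = 0.0584), the wt/GFP spheroid array (1.04, adjusted p = 0.227) or the wt monolayer array (0.79, adjusted p = 0.261). EIF2AK2 lost it without the wt spheroid array (0.25, adjusted p = 0.0807), the wt monolayer array (0.39, adjusted p = 0.145) or the wt/GFP monolayer array (0.47, adjusted p = 0.0692). SP100 lost it without the wt/GFP spheroid array (0.25, adjusted p = 0.0897), the wt monolayer array (0.33, adjusted p = 0.239) or the wt/GFP monolayer array (0.32, adjusted p = 0.25). These 3 members thus passed with all arrays and with 1 of the 4 reduced sets. SAMD9 lost its call without the wt spheroid array (0.66, adjusted p = 0.0716), the wt/GFP spheroid array (0.71, adjusted p = 0.0588) or the wt/GFP monolayer array (0.44, adjusted p = 0.193). HERC5 lost it without the wt spheroid array (0.40, adjusted p = 0.125) or the wt/GFP monolayer array (0.26, adjusted p = 0.387). ISG20 lost it without the wt spheroid array (0.76, adjusted p = 0.0520), and IFI27 without the wt/GFP spheroid array (1.58, adjusted p = 0.114). IFIT5 in turn was called lower without the wt/GFP spheroid array (-0.35, adjusted p = 0.0312). By contrast 7 members, IFIH1, IFIT1, IFIT2, GBP2, BST2, PARP9 and IFI6, were called higher under every alternative that gave a value for them, 16 in all and 15 for BST2.

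The other genes of the pathway were read from lists of its ligands, receptors, signalling proteins, sensors and regulators, and their counts stand beside the 30.7% of all genes tested that were called higher and the 18.6% called lower. Among 20 interferon genes, 18 had a probe set and 4 passed the filter, and 0 were called by limma, with 0 at an unadjusted p under 0.05. Of the 4 tested, IFNA17 had the largest value, 0.81 ± 0.46 (adjusted p = 0.155), with signals of 112 and 77.3 in spheroids against 105 and 17.6 in monolayers. Among the ligands below the filter, IFNK and IFNA14 were singled out after their values were seen. IFNK had 20.4 and 31.6 in spheroids against 0.846 and 0.530 in monolayers. IFNA14 went the other way, with 4.14 and 8.39 in spheroids against 29.6 and 28.3 in monolayers. The median change of the 18 ligands on the array was 0.22, next to 0.21 for all named genes. Of 6 receptor genes, 3 rose. IFNGR1, a receptor chain for interferon gamma, rose by 1.21 ± 0.12 (adjusted p = 1.88e-09), IFNAR2, a chain for type I interferons, by 0.54 ± 0.19 (adjusted p = 0.0190), and IL10RB, a shared chain for interferon lambda, by 0.46 ± 0.14 (adjusted p = 0.00686). IFNLR1, the other interferon lambda chain, did not pass (0.14 ± 0.18). Of 9 tested genes for JAK kinases and interferon regulatory factors, 4 rose and none fell. IRF9, the DNA-binding partner of the STAT proteins, had 998 and 971 in spheroids against 181 and 223 in monolayers, a change of 2.22 ± 0.19 (adjusted p = 7.89e-11). IRF2, a factor that competes with IRF1 for its sites, rose by 1.40 ± 0.29, IRF5 by 0.66 ± 0.27 and the kinase JAK1 by 0.50 ± 0.12.

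Of 10 tested genes for sensing adaptors and kinases, 4 rose. CGAS, the sensor of cytosolic DNA, had 148 and 137 in spheroids against 48.3 and 6.93 in monolayers, and rose by 2.11 ± 0.48 (adjusted p = 0.000581). CGAS averaged below the filter level in monolayers and entered the test through its spheroid arrays. STING1, its adaptor at the endoplasmic reticulum, rose by 1.39 ± 0.22 (adjusted p = 5.22e-06), with 493 and 577 in spheroids against 230 and 164 in monolayers. MAVS, the adaptor of RIG-I and MDA5 at mitochondria, rose by 0.52 ± 0.13, and TLR3, an endosomal sensor of double-stranded RNA, did not pass (-0.76 ± 0.43, adjusted p = 0.146). Of 13 regulators that restrain the pathway, 2 rose and 3 fell. SOCS3, a feedback inhibitor of JAK kinases, rose by 1.30 ± 0.18. RNASEH2C and RNASEH2A are subunits of an enzyme that removes RNA from DNA. RNASEH2C fell, with 484 and 509 in spheroids against 896 and 1124 in monolayers (adjusted p = 5.22e-06), RNASEH2A fell by 0.77 ± 0.12, and PTPN1, a phosphatase of JAK kinases, fell by 0.92 ± 0.14. The changes of these lists had medians of 0.30 for receptors, 0.34 for JAK kinases and interferon regulatory factors, 0.019 for adaptors and 0.024 for regulators, next to 0.21 for all named genes.

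Markers of other cell types were read as a check of the label. EPCAM, CDX1 and PTPRC were singled out after their values were seen. The 10 colon epithelial markers summed to 115152 and 113792 in spheroids against 104911 and 86507 in monolayers, and 4 of the 9 tested rose, among them CDH1 and VIL1. EPCAM, an adhesion protein of epithelia, was at 29302 and 26560 in spheroids against 23547 and 19611 in monolayers, while CDX1, a colon factor, stayed between 12.4 and 27.9. Of 9 leukocyte markers on the array, 4 were tested and 1 rose, and their summed signal was 594 and 601 in spheroids against 367 and 276 in monolayers. The rise was that of LYZ, with 290 and 328 in spheroids against 32.0 and 9.61 in monolayers, whereas PTPRC, which defines leukocytes, had 42.2 and 6.19 in spheroids against 18.1 and 20.6 in monolayers. Markers of plasmacytoid dendritic cells, which make much interferon, summed to 219 and 134 in spheroids against 68.4 and 101 in monolayers. Of these 5 markers 1 was tested and called higher, LILRA4. LILRA4 had 96.3 and 72.8 in spheroids against 8.22 and 21.0 in monolayers. Like LYZ, VIL1 and the fibroblast marker COL3A1, it averaged below the filter level in monolayers and entered the test through its spheroid arrays. Fibroblast markers summed to 2440 and 4075 in spheroids against 479 and 455 in monolayers, mostly through COL1A1, and 2 of the 3 tested, out of 7, were called higher. Endothelial markers summed to 261 and 301 in spheroids against 183 and 146 in monolayers, with 1 of 5 tested, 0 called by limma and 0 at an unadjusted p under 0.05. None of these markers was listed at 0, and their part in the results was not tested.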

How the data were processed

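The 4 arrays hold 1 spheroid and 1 monolayer sample for each of 2 lines, grouped by the labels. The values are intensities on a linear scale that the authors deposited; the submitters' processing notes name MAS5 as the tool. The settings were not stated in the labels or the tables. Of 54675 probe sets, 62 are controls, 41091 have 1 symbol, 1801 have several and 11721 have none, and probe sets with several or no symbols were passed over. A RefSeq table gave current symbols for the annotation's gene identifiers.

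Signals became log2(signal + 14.0), with the 25th percentile as pseudocount. Probe sets above the 40th percentile of mean log2 values (5.48, a signal of 30.6) were kept, and each gene took the one with the highest mean. Models were fitted by limma (version 3.58.1, R 4.3.3) with condition and line as terms, eBayes moderation with a trend and two-sided Benjamini-Hochberg adjustment. It was tested on simulated data. The pairing comes from the cell line in the labels; the line differences in spheroids and monolayers correlated at 0.00683 across genes. The p-values rest mostly on genes of like brightness, with 1 residual degree of freedom against a median of 26.7 borrowed from other genes. The residual itself measures the disagreement of the 2 lines, not the spread of replicate cultures. A low p thus does not show that the 2 lines agree for a gene. All 50 members could be named, and of each other list up to 4 tested genes with the largest change. The members, lists and naming rule were chosen with earlier results of these data known. IRF9 could be named too. Promoters were shown for up to 6 called members with a core, the largest change first. EPCAM, CDX1, PTPRC, IFNK, IFNA14 and the promoter of ISG15 fall outside these rules. Alternatives covered scaling, pseudocount, filter, probe set choice, the line term, the trend and each array left out. The fits with an array left out had no line term.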

Additional observations from a re-analysis of the deposited data

Results flagged for a closer look

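In 9 tested members the change had opposite signs in the 2 lines. Each line has 1 array per condition, so the difference between lines was not tested, and none of the 9 was called in the fit over both lines. SAMD9L, a relative of the poxvirus restriction factor SAMD9, had the widest gap, with a log2 change of 0.82 in wt/GFP and -1.59 in wt. XAF1 changed by 0.55 in wt/GFP and -0.32 in wt, and EPSTI1 by -0.019 in wt/GFP and 0.96 in wt. In the remaining members the gaps between the lines were smaller. ISG15 had -0.43 in wt/GFP and 0.20 in wt, IFI35 had -0.41 in wt/GFP and 0.25 in wt, and HERC6 had -0.29 in wt/GFP and 0.17 in wt. TRIM21 had -0.22 in wt/GFP and 0.18 in wt, PARP14 had 0.24 in wt/GFP and -0.010 in wt, and PLSCR1 had -0.040 in wt/GFP and 0.22 in wt.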

How the results depend on the processing

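Scaling moved the counts most. Members called higher numbered 20 with the deposited scaling and 8 after scaling to the hybridisation controls, and members called lower numbered 1 with the deposited scaling, 4 with median-centred arrays and 3 with the hybridisation controls as the scale. Moderation without a trend left 0 called lower by limma, since NMI had adjusted p = 0.0814, with 1 at an unadjusted p under 0.05. Over all genes that setting called 1176 lower and 2653 higher, against 2663 and 4396 with the trend. The same setting ended the calls of IFI27 (adjusted p = 0.112), EIF2AK2, SAMD9, HERC5 and SP100. Under the other alternatives with all arrays, 14 to 21 members were called higher. The 14 were with median-centred arrays, beside 2354 of all genes called higher. The 21 were with the median signal as pseudocount, beside 4580 of all genes. Without 1 array each, 15 to 17 were called higher and 1 to 2 lower. The median change of the members was 0.52, and 0.28 after quantile normalization, 0.13 with median-centred arrays, -0.074 with the hybridisation controls as the scale, 0.72 without a pseudocount, 0.38 with the median signal as pseudocount, 0.49 with the mean of probe sets, 0.58 without shared probe sets, and 0.41 to 0.60 without 1 array each. The sign of called values turned for SP100 (-0.069 after median centring, -0.27 with the hybridisation controls), EIF2AK2 (-0.16) and HERC5 (-0.092), and PLSCR1 was called lower after median centring (-0.30); other sign changes, 38 in all, were of values called in neither setting. The cause was not tested. Without the replicate block of cell line, 19 members were called higher, beside 4114 of all genes. OAS1 lost its call (adjusted p = 0.0515), and no other member changed its call. Under the alternatives that keep the line term, no member was called between the lines, with 5 members at an unadjusted p under 0.05 in limma with the deposited scaling. Detection calls were not used, so dim signals carry no statement of presence.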

Other observations

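Several members are neighbours in the RefSeq annotation, with at most 3 protein-coding genes between them. On chromosome 12, OAS1 and OAS3 are adjacent, and OAS3 and OAS2 are adjacent; OAS1 rose by 1.34 while OAS3 and OAS2 had values of 0.19 and -0.66 that did not pass. On chromosome 10, IFIT2 and IFIT3 are adjacent and both rose, by 2.38 and 1.29, and IFIT1 and IFIT5 are adjacent with values of 1.89, a rise, and -0.25, which did not pass. GBP2 rose by 2.12 beside GBP1, which was too dim to be tested. SAMD9 and SAMD9L, adjacent on chromosome 7, had values of 0.68, a rise, and -0.39, which did not pass. HERC5 and HERC6, adjacent on chromosome 4, had 0.50, a rise, and -0.059, which did not pass. IFI44 and IFI44L, adjacent on chromosome 1, had untested values of 1.62 and 1.42, and MX1 and MX2, adjacent on chromosome 21, had untested values of 1.27 and -0.52. Whether related genes share probe sequence was not tested.

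Probe sets of the same gene did not always give the same sign. Of 18 members with at least 2 probe sets above the filter, 11 had all values of 1 sign and 7 had both signs. The 7 were EIF2AK2, IFIT5, OAS2, OAS3, PML, SP100 and SP110. When every probe set was tested alone, 29 member probe sets were called higher and 2 lower, against 25.6% and 14.6% of all probe sets tested.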
